A study of Mus musculus with 18 samples.

Results

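The first hours after stimulation of the B cell receptor (BCR) were examined in the TFEB mutant clone A-59 of WEHI-231, a murine B cell line of lymphoma origin with the features of an immature B cell. Of the 18 samples of the series, 4 belonged to this experiment, 2 of untreated cells (0 h) and 2 of cells stimulated for 6 h, and they were taken by their labels, without use of any measured value. Stimulated cells had received 10 µg/ml of F(ab')2 fragments of an antibody against mouse IgM, while untreated cells had received none. For comparison, the same pair of times was used in parental cells (4 samples) and in a second TFEB mutant clone, B-20 (4 samples), together with 2 samples of A-59 stimulated for 18 h. Both clones descended from single cells after Cas9 editing of Tfeb, so the effect of the mutation and a property of that one clone cannot be told apart. Per the study's methods, the 2 samples of a group came from independent experiments.

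Binding of antigen to the BCR activates the kinase Syk, from which calcium and NFAT, Ras and ERK, PI3K, and the CARMA1, BCL10 and MALT1 complex branch off. The last of these releases NF-kB, whose target genes include its own inhibitors and subunits. In immature B cells such as WEHI-231, a BCR signal without T cell help leads to growth arrest and death. TFEB, like its relatives TFE3 and MITF, binds the CLEAR element of many lysosomal and autophagy genes.

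Transcripts were counted per gene, and the 4 A-59 libraries held between 16328945 and 29655262 counts. As a measure of level, CPM (counts scaled to a library of 1 Mio counts) were computed with the TMM scaling of edgeR. In such bulk samples, fewer cells with a transcript and less of it in each cell cannot be told apart. The 2 libraries of A-59 at 6 h differed from each other with an SD of the log2 ratio of 0.304 over 13932 genes, against 0.210 in untreated A-59, 0.282 in B-20 at 6 h and 0.157 in parental cells at 6 h. Genes that differed more than 2-fold between replicates numbered 38 in A-59 at 6 h and 69 in B-20 at 6 h. Their log2 ratio followed the GC content of the genes (Spearman's rho 0.583, across genes, which are not independent replicates), and so did that of the untreated pair (0.541). Replicate 1 at 6 h also had the lowest share of mitochondrial counts of all 18 libraries (1.25%, against 1.89% in replicate 2). With a correction for GC content 220 genes passed the criteria given below, 191 of them among the 213 found without it. The part of the mitochondrial share was not tested, and counts are given without each library where one decides them. Markers of B cells were high in all 4 libraries (summed level of 10 genes 8230 to 9377 CPM). The 10 macrophage markers summed to 14.5 to 19.6 CPM. Among them Lyz2, Cd14 and Marco had 0 counts in each of the 4 libraries, whereas Itgam had 152 to 212 and Cd68 108 to 186 counts. Csf1r and Adgre1 were higher at 6 h, while Itgam and Cd68 had log2 fold changes of 0.006 and 0.263. Fcgr1 went from 21 and 17 counts at 0 h to 13 and 8 at 6 h. The 10 T cell markers summed to 69.7 to 107 CPM, mostly from Cd8b1, which was moderately higher at 6 h (log2 fold change 0.56), and Zap70, while Cd3e had at most 2 counts and Cd28 had 0. NK cell and neutrophil markers summed to at most 0.122 and 0.308 CPM.

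Tfeb transcripts remained in the clone. Tfeb (ENSMUSG00000023990, chromosome 17, 47737037 to 47792416 of GRCm38) stood at 25.9 and 25.5 CPM in untreated A-59 and at 30.4 and 29.8 CPM after 6 h, below the 79.2 and 82.8 CPM of untreated parental cells. Its log2 fold change in untreated A-59 against untreated parental cells was −1.65 (adjusted p = 2.44e-09 by edgeR's quasi-likelihood test, adjusted over all genes after Benjamini and Hochberg). BCR stimulation did not move Tfeb past the threshold in A-59 at 6 h (log2 fold change 0.23, adjusted p = 0.196). Counts per gene say nothing of the protein made from these transcripts. Tfe3 fell from 60.4 and 54.8 CPM to 38.0 and 35.6 CPM (log2 fold change −0.65, adjusted p = 2.07e-04), and by a log2 fold change of −0.69 in parental cells. Mitf had a log2 fold change of −0.17 (adjusted p = 0.606).

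After 6 h, 213 of 15318 genes were differentially expressed in A-59 (1.39%), 91 higher (0.594%) and 122 lower (0.796%). The criteria were an FDR below 0.01 together with a change of more than 1 on the log2 scale. Genes with an FDR under 0.05 at any fold change, called here moderately changed, numbered 917 higher (5.99%) and 1199 lower (7.83%). The rising and the falling genes differed in level: the median of the higher genes went from 1.54 CPM at 0 h to 3.75 CPM at 6 h, and that of the lower genes from 18.4 to 6.82 CPM. The count depended on single libraries. It was 108 without untreated replicate 2, 111 without 6 h replicate 1, 197 without untreated replicate 1 and 310 without 6 h replicate 2, and 71 of the 213 genes (23 higher, 48 lower) passed in each of these 4 fits. When only the 4 A-59 libraries entered the fit, 76 genes passed, 16 higher and 60 lower. The number of moderately changed genes over all genes also shifted without a library. Counts of list members from those fits are therefore not to be read against 5.99% and 7.83%. In all 213 genes the 6 h libraries lay wholly above or wholly below the untreated ones, so this separation does not single out any of them.

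Among genes with at least 20 counts on average, Fcer2a, Hivep3 and Pim1 fell most. Fcer2a, the low-affinity IgE receptor CD23, dropped from 373 and 468 CPM in the untreated libraries to 59.5 and 70.3 CPM. Its log2 fold change was −2.70 (standard error 0.24, adjusted p = 1.6e-05), and at 18 h it was back at 407 and 351 CPM. Hivep3, a zinc finger protein that binds kappaB-like sequences, went from 56.9 and 63.6 CPM to 10.3 and 9.84 CPM (−2.57, adjusted p = 8.94e-06). The serine/threonine kinase gene Pim1 went from 90.5 and 72.3 CPM to 15.4 and 13.1 CPM (−2.51, adjusted p = 2.11e-07) and had not returned at 18 h (14.6 and 11.4 CPM). In each of these genes both 6 h libraries lay far below both untreated ones, and each call held without any single library. Slamf7, a receptor of the SLAM family, fell from 5.55 and 6.16 CPM to 1.14 and 1.03 CPM. Cd83, a marker of activated B cells, fell from 16.7 and 20.5 CPM to 4.28 and 3.08 CPM (−2.30, adjusted p = 2.84e-04), but lost its call without 6 h replicate 1 (adjusted p = 0.0108). Kcnj1, Inpp4b, a lipid phosphatase of the PI3K pathway, and Hpn had log2 fold changes of −2.33, −2.24 and −1.87, and all passed in each fit without 1 library. Ankrd45 (−2.01), the noncoding Gm6145 and Ccr6 (−1.92) lost their calls without untreated replicate 2 and without 6 h replicate 1, with adjusted p of at most 0.168, 0.129 and 0.0160.

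Transcripts that rose most were mainly of low abundance. The tyrosine phosphatase gene Ptpn7 rose from 0.237 and 0.207 CPM to 2.08 and 1.87 CPM (log2 fold change 3.11, standard error 0.36, adjusted p = 2.23e-05). Tubb6, which encodes a beta-tubulin and is related in sequence to other tubulin genes, rose from 4.88 and 3.73 CPM to 44.3 and 23.7 CPM (2.97, adjusted p = 3.05e-06) and was down to 3.41 and 2.23 CPM at 18 h. Its 6 h libraries differed from each other, and without 1 library its log2 fold change lay between 2.44 and 3.34. Ptgir, the prostacyclin receptor gene, rose from 1.12 and 0.828 CPM to 5.30 and 5.19 CPM (2.39, adjusted p = 5.85e-06). Alcam, an adhesion molecule that binds CD6, rose from 1.76 and 1.86 CPM to 6.63 and 9.24 CPM (2.11, adjusted p = 7.27e-05). The scaffold gene Shank1 was the most abundant of these genes at 6 h, where it rose from 27.5 and 24.5 CPM to 97.1 and 101 CPM (1.93, standard error 0.11, adjusted p = 1.54e-08) and stayed there at 18 h. Ndrg4 (2.57), Ptprv (2.01), Ighg3 (1.88) and the gene ENSMUSG00000072812 (2.12), for which the annotation gave no symbol, also kept their calls without any single library. Havcr1 (2.99) and Elfn2 (1.97) were called in 0 and 1 of the 4 fits without 1 library, with adjusted p of up to 0.0468 and 0.0406.

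**Figure D1:**
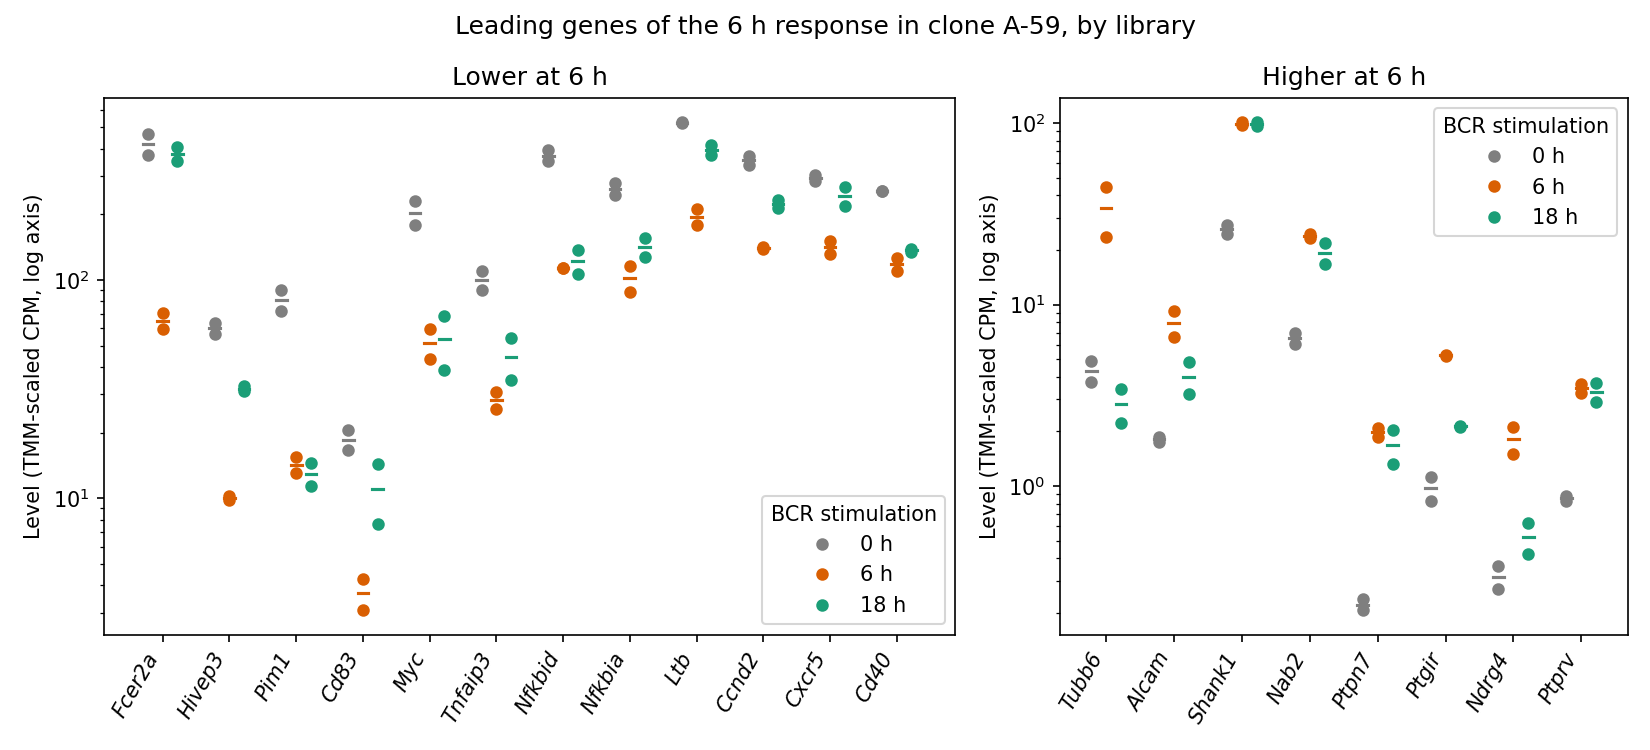
Levels of leading genes in A-59, in TMM-scaled CPM on a log axis, by time of BCR stimulation. Each point is 1 library and each bar the mean of 2. The 6 h libraries (orange) lie below both untreated libraries (grey) on the left and above them on the right, and Fcer2a and Tubb6 were near their untreated level at 18 h (green) while Pim1 and Shank1 were not.

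Subunits and inhibitors of NF-kB fell together. Of 17 genes in the list, 5 were differentially expressed, all lower, and 9 were moderately lower and 1 higher, which is 52.9% lower against 7.83% of all genes. The median log2 fold change of the list was −0.58, against 0.008 over all genes tested. Nfkbid, which encodes the nuclear inhibitor IkappaBNS, fell from 392 and 350 CPM to 113 and 113 CPM (log2 fold change −1.71, standard error 0.12, adjusted p = 7.56e-08). Nfkbia, the gene of IkappaB alpha, fell from 279 and 245 CPM to 116 and 88.5 CPM (−1.35, adjusted p = 4.58e-06). Nfkbie, the gene of IkappaB epsilon, fell from 141 and 134 CPM to 55.3 and 54.6 CPM (−1.32, adjusted p = 1.06e-06). The subunit gene Relb fell from 67.3 and 65.9 CPM to 29.6 and 23.2 CPM (−1.33, adjusted p = 1.51e-04). Tnfaip3, which encodes the deubiquitinase A20, fell from 110 and 90.0 CPM to 30.6 and 25.7 CPM (−1.82, adjusted p = 8.52e-04). As in all 213 differentially expressed genes, no 6 h library of these 5 reached an untreated one. All but Tnfaip3 kept the call without any single library. Tnfaip3 lost it without either 6 h library, and its log2 fold change lay between −1.96 and −1.67 without 1 library. Nfkb2 (−0.89), Rel (−0.80), Ikbke (−0.73) and Nfkb1 (−0.58) were moderately lower, and Traf1, a signal adaptor of TNF receptors, was higher (0.53, adjusted p = 0.0118). The number of moderately lower members was 9 in each of the 4 fits without 1 library.

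Promoters of these genes are shown because their transcripts fell together. Only windows that held a match are shown, and Relb had no promoter in the table used. Each sequence is the RefSeq window from 250 bases before to 50 bases after a transcription start of GRCm38.p6, read along the gene's strand. Capitals mark matches, on either strand, to the 10-base NF-kB consensus, which begins with GGG, ends with CC and has a purine, any pair of bases and a pair of pyrimidines between. The windows are chr7:30422156-30422455 (+ strand) for Nfkbid, chr10:19015361-19015660 (− strand) for Tnfaip3, chr12:55492598-55492897 (− strand) for Nfkbia and chr17:45555450-45555749 (+ strand) for Nfkbie.
Nfkbid: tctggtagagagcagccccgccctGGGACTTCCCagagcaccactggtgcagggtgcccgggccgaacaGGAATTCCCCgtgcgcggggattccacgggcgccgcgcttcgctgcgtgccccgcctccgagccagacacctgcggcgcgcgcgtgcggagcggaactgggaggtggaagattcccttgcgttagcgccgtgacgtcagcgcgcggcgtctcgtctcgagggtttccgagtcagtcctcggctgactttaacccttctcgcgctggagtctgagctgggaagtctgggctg
Tnfaip3: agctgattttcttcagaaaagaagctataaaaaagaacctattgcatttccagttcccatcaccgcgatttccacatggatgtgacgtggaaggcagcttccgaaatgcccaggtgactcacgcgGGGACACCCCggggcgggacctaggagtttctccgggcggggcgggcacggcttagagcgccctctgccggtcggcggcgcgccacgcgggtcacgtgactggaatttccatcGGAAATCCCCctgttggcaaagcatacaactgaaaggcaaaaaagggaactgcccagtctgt
Nfkbia: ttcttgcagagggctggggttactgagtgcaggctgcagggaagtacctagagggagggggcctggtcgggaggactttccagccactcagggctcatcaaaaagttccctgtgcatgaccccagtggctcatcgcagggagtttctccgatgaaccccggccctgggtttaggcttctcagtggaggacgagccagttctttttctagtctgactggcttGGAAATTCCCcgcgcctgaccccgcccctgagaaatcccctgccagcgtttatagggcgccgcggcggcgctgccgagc
Nfkbie: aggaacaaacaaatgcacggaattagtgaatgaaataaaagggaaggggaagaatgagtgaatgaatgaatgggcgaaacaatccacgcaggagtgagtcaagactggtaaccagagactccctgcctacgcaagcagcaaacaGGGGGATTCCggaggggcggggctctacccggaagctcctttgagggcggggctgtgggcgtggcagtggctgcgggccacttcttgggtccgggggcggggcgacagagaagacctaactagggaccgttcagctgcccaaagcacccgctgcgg
Nfkbid had matches beginning 226 and 181 bases before the start, Tnfaip3 125 and 12 bases before, Nfkbia 29 bases before and Nfkbie 106 bases before. Of the 9 moderately lower members of the list, 7 had a promoter in the table used, and 6 of these 7 held a match (85.7%), compared with 3 of 7 list members that were not lower (42.9%). The same was true of 1246 of 10243 tested genes with a promoter (12.2%). By promoter window, 8 of 12 of the lower members held a match (66.7%). This compares with 3 of 7 windows of the members not lower and 10.3% of the 13000 windows of tested genes. Among the 122 differentially expressed genes that were lower, 79 had a promoter and 20 of them a match (25.3%), and among the 91 that were higher, 12 of 64 (18.8%). The EGR motif GCGGGGGCG was found in 10 of the 64 higher genes (15.6%), in 2 of the 79 lower genes (2.53%) and in 6.27% of tested genes. AP-1 sites (TGAGTCA) were found in 7 of 79 lower and 6 of 64 higher genes, against 4.31%, and CRE sites (TGACGTCA) in 1 of each, against 3.5%. CArG boxes were found in 2 lower and 0 higher genes, against 1.54%. These matches describe the sequence and were not tested.

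Members of the list also fell in both other lines. In parental cells, 10 members of the list were moderately lower with a list median of −0.45, and in B-20 9 members with a median of −0.37. The share of all genes moderately changed in these lines was not counted, so member numbers here and below are not compared between lines. Over all genes, 2.62% were differentially expressed in parental cells and 0.385% in B-20. Nfkbid fell by 1.78 on the log2 scale in parental cells and by 1.56 in B-20. Only Nfkbie passed an FDR under 0.05 in the test of the difference between the responses of A-59 and parental cells (log2 difference −0.87, adjusted p = 0.00643), short of the fold threshold. It fell by 0.45 in parental cells and by 0.93 in B-20.

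**Figure D2:**
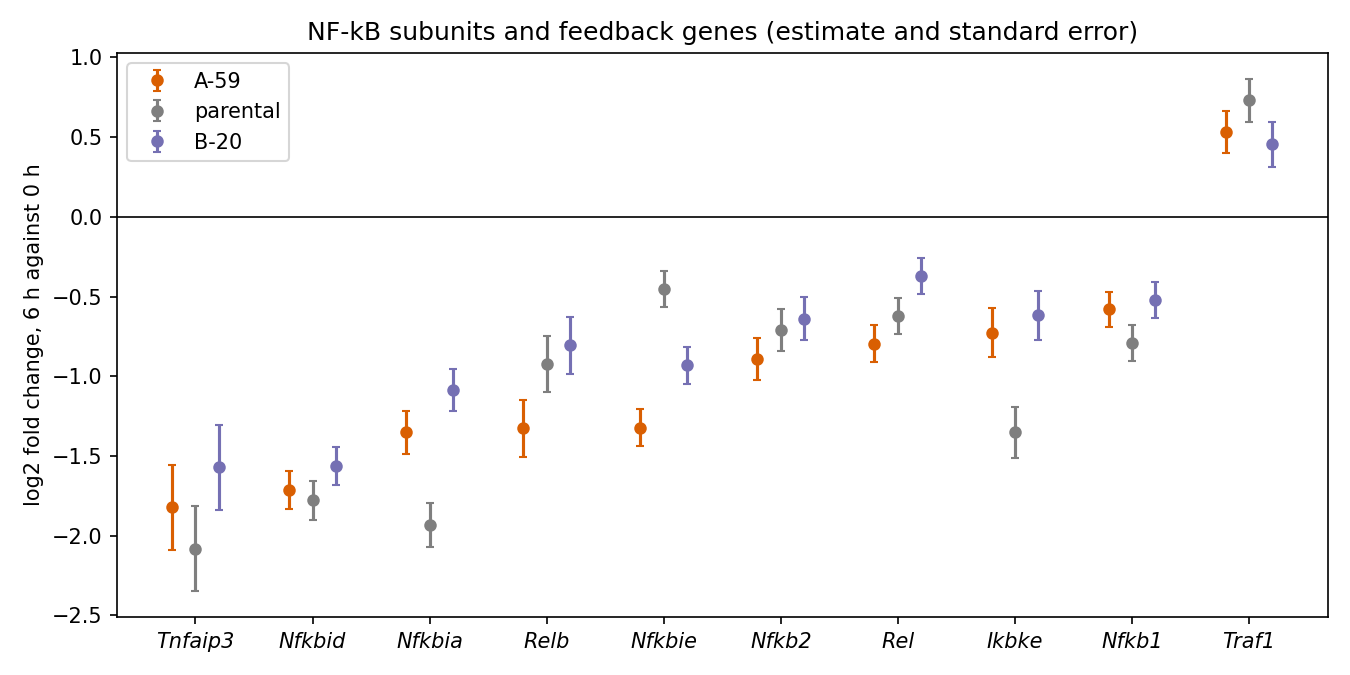
Log2 fold change at 6 h against 0 h of the 10 members of the NF-kB list with an FDR under 0.05 in A-59, for A-59, parental cells and B-20. Points are the estimates of edgeR and bars 1 standard error. Tnfaip3 to Nfkb1 lie below 0 and Traf1 above 0 in each genotype, and Nfkbie is lower in A-59 (−1.32) than in parental cells (−0.45).

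Among activation and costimulatory surface genes, 5 of 18 were differentially expressed and lower, and 6 of 18 moderately lower (33.3%), with none higher, where 0.796% and 7.83% of all genes were lower by these criteria. Besides Slamf7 and Cd83, these were Cd24a (204 and 234 CPM to 81.5 and 95.8 CPM, log2 fold change −1.31), the cytokine receptor Il21r (65.8 and 69.6 CPM to 31.1 and 26.2 CPM, −1.23) and Cd40 (256 and 255 CPM to 126 and 110 CPM, −1.11, adjusted p = 4.67e-05). Cd40, the receptor through which T cells rescue B cells, was about as low at 18 h (135 and 139 CPM) and fell by 1.84 in parental cells. Cd24a lost its call without 6 h replicate 1 (adjusted p = 0.0306). Of the secreted factors, 9 of 21 had enough counts, and 3 were differentially expressed and lower, where 0.796% of all genes were. Ltb (lymphotoxin beta) fell from 527 and 524 CPM to 211 and 179 CPM (−1.43, adjusted p = 3.14e-06), and Lta and Il12a by 1.38 and 1.25. Tnf went from 13.6 and 16.8 CPM to 4.96 and 4.23 CPM (−1.71, adjusted p = 0.0178). The chemokine gene Ccl22 moved the other way, from 265 and 270 CPM to 559 and 478 CPM (0.96, adjusted p = 0.00434), and Il6 rose by 0.90 (adjusted p = 0.036). The calls of Lta were lost without each of the 4 libraries (adjusted p up to 0.0495) and those of Il12a without untreated replicate 1 and 6 h replicate 2 (up to 0.0206).

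Receptors for positioning in lymphoid tissue also included members that fell. Of 16 tested, 3 were differentially expressed, all lower, where 0.796% of all genes were. Moderately lower were 4 (25.0%, against 7.83% of all genes) and moderately higher 1 (6.25%, against 5.99%). The follicle homing receptor gene Cxcr5 fell from 302 and 284 CPM to 151 and 132 CPM (log2 fold change −1.05, adjusted p = 4.58e-06), with −0.96 and no call without 6 h replicate 2. S1pr1, the egress receptor gene, fell from 11.3 and 13.4 CPM to 5.64 and 6.16 CPM (−1.07, adjusted p = 0.00178), and its call was lost without untreated replicate 2 and without 6 h replicate 1. Ccr6 went from 2.98 and 4.82 CPM to 0.947 and 1.09 CPM. Cxcr4 had a log2 fold change of 0.61 (adjusted p = 0.102). Ccr7 is treated below with the genes that differed from parental cells.

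Myc and genes of ribosome assembly were lower. Myc went from 229 and 178 CPM at 0 h to 59.8 and 43.7 CPM at 6 h (log2 fold change −1.97, standard error 0.33, adjusted p = 0.00354) and stood at 68.7 and 38.9 CPM at 18 h. Its call was lost without each of the 4 libraries in turn, with log2 fold changes between −2.22 and −1.77. Of 34 genes of ribosome biogenesis, 33 had a negative log2 fold change, 2 were differentially expressed and lower and 14 were moderately lower (41.2%, against 7.83% of all genes), with a median of −0.36. Rrp1b, a nucleolar protein gene, fell from 143 and 149 CPM to 71.7 and 63.1 CPM (−1.11, adjusted p = 2.30e-04), and Rrs1 from 54.0 and 60.8 CPM to 27.2 and 27.2 CPM (−1.08, adjusted p = 4.35e-04). Rrs1 lost its call without untreated replicate 2 and without 6 h replicate 1 (adjusted p up to 0.0198). Gnl3 (nucleostemin, −0.83), the helicase gene Ddx21 (−0.77) and the methyltransferase gene Nop2 (−0.75) were moderately lower, and each went lower still by 18 h, for example Gnl3 from 163 and 204 CPM to 77.5 and 92.4 CPM. Without untreated replicate 2 the number of moderately lower members was 4, without 6 h replicate 1 it was 5, and without the other two libraries it was 14 and 15, while the median stayed between −0.46 and −0.28. In parental cells and in B-20, 0 of these 34 genes were moderately changed, with medians of −0.01 and −0.14. The test of the difference from the parental response passed for 0 of the 34 at an FDR under 0.05, so a difference was not shown. The structural proteins of the cytosolic ribosome had a median of −0.04, with 5 of 32 moderately lower (15.6%, against 7.83% of all genes) and 0 higher. The median lay between −0.09 and −0.02 without 1 library, while the count depended on single libraries.

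DNA replication genes had small changes in the other direction. Of 36 genes, 34 had a positive log2 fold change, 9 were moderately higher (25.0%, against 5.99% of all genes) and 0 lower, with a median of 0.22. Gins2, a subunit of the replicative helicase complex, went from 16.4 and 12.5 CPM to 23.7 and 18.7 CPM (0.55, adjusted p = 0.0145), and the polymerase gene Pold1 from 512 and 397 CPM to 794 and 527 CPM (0.54, adjusted p = 0.0148). This count fell without untreated replicate 2 or 6 h replicate 1, as did that of all genes, and it did not hold there. It rose without untreated replicate 1 or 6 h replicate 2. The median was 0.15 in each of the first 2 fits, 0.31 without untreated replicate 1 and 0.30 without 6 h replicate 2. Among cyclins and kinases of the first gap phase, Ccnd2 (cyclin D2) fell from 338 and 370 CPM to 138 and 142 CPM (−1.34, standard error 0.09, adjusted p = 7.56e-08). Cdk6 (−0.84) and Ccnd1 (−1.08, adjusted p = 0.0274) were moderately lower, and E2f1 was moderately higher (0.61, adjusted p = 0.00858). The mitosis list had 2 of 32 genes moderately higher (6.25%, against 5.99% of all genes) and 1 lower (3.12%, against 7.83%).

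A part of the lysosomal genes rose slightly in the TFEB mutant. Of 38 genes of hydrolases and membrane proteins, 13 were moderately higher (34.2%, against 5.99% of all genes) and 1 lower, with a median log2 fold change of 0.22. The largest was 0.70 and 0 passed the fold threshold, by edgeR or by DESeq2, while 18 were higher at an unadjusted p under 0.05. Ctsz, the cathepsin Z gene, went from 259 and 232 CPM to 485 and 313 CPM (0.70, adjusted p = 0.00176), the cholesterol transporter gene Npc1 from 30.1 and 28.8 CPM to 46.2 and 39.4 CPM (0.54, adjusted p = 0.00174), and the glucosidase gene Gaa from 113 and 96.3 CPM to 164 and 130 CPM (0.49, adjusted p = 0.00536). In each of these genes 6 h replicate 1 was higher than 6 h replicate 2. The proton pump V-ATPase had 4 of 16 genes moderately higher (25.0%, against 5.99% of all genes) and 0 lower. Among them was Atp6v1b2 (232 and 231 CPM to 327 and 314 CPM, 0.47, adjusted p = 3.84e-04). The V-ATPase number was 7 without 6 h replicate 2 and 2 without each of the other libraries. Without untreated replicate 2 there were 2 moderately higher lysosomal genes, without untreated replicate 1 or 6 h replicate 1 there were 8, and without 6 h replicate 2 there were 16, while the median stayed between 0.18 and 0.20. Parental cells had 18 of 38 moderately higher and 2 lower, with a median of 0.31, and B-20 had 0 moderately changed with a median of 0.19. Over all genes, 2.62% were differentially expressed in parental cells and 0.385% in B-20, so the 2 counts are not compared. The difference of response between A-59 and parental cells passed an FDR under 0.05 for 1 of the 38 genes.

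The CLEAR core, TCACGTGA, was searched in the promoters of these lysosomal and V-ATPase genes because it is the element that TFEB and its relatives bind. Of the 17 moderately higher genes, 12 had a promoter in the table and 6 of them held the core (50%): Atp6v1a, Cln3, Ctsa, Ctsd, Gla and Mcoln1. The core was found in 2 of 27 genes of these lists that were not higher (7.41%), and in 227 of 10243 tested genes (2.22%). By promoter window, the shares were 42.9% of the higher genes' windows, 6.45% of those not higher and 1.84% of tested genes' windows. Matches to the core also count as matches to the E-box CACGTG, which 7 of the 12 genes and 11.5% of tested genes held. As with the NF-kB sites, these matches describe the sequence, and their part in the rise was not tested. The windows of the cathepsin A gene Ctsa (chr2:164833523-164833822, + strand) and of the lysosomal cation channel gene Mcoln1 (chr8:3500269-3500568, + strand) are given as examples, with the core in capitals.
Ctsa: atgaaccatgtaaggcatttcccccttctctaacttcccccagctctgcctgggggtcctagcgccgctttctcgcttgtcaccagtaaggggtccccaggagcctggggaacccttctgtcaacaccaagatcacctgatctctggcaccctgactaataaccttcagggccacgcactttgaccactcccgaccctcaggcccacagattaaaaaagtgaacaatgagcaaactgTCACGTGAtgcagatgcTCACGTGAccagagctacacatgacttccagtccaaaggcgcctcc
Mcoln1: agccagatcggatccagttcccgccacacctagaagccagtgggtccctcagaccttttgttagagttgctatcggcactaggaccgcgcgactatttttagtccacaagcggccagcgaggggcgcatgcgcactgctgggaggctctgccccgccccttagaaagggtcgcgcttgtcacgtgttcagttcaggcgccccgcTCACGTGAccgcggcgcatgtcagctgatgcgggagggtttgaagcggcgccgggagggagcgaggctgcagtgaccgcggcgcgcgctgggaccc
Ctsa had one core beginning 13 bases before the start and another just after it, and Mcoln1 had one beginning 46 bases before the start. Ctsa went from 68.4 and 62.1 CPM to 93.1 and 82.3 CPM (log2 fold change 0.43, adjusted p = 0.00504) and Mcoln1 from 36.3 and 30.9 CPM to 51.5 and 38.8 CPM (0.43, adjusted p = 0.0278).

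**Figure D3:**
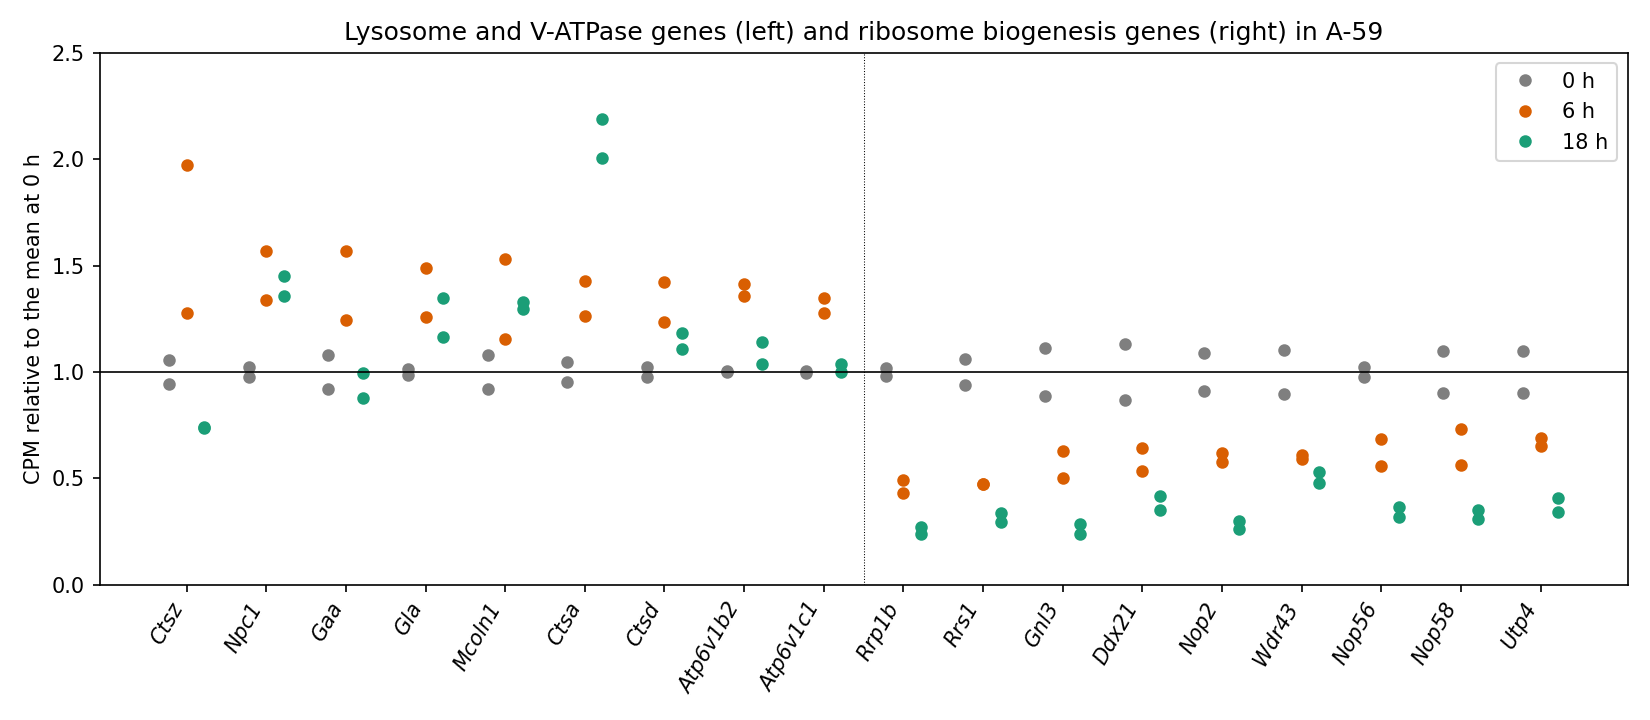
CPM of 9 lysosomal and V-ATPase genes and 9 ribosome biogenesis genes in A-59 at 0, 6 and 18 h, each divided by the gene's mean at 0 h. Each point is 1 library. The 6 h points lie above both untreated points on the left and below them on the right. The share of all genes so separated was not counted, so this does not single out these genes. Ribosome biogenesis genes are lower again at 18 h.

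Of 38 autophagy genes, 5 were moderately higher (13.2%, against 5.99% of all genes), 2 lower (5.26%, against 7.83%) and 0 differentially expressed by edgeR or DESeq2, with a median of 0.04. At an unadjusted p under 0.05, 9 were higher and 6 lower. The autophagy receptor gene Calcoco1 rose by 0.58 (adjusted p = 0.0176), and Uvrag and Atg16l1 fell by 0.41 and 0.35. Of the folliculin and Rag regulators of TFEB, Lamtor4 (0.55) and Flcn (0.49, adjusted p = 0.00311) were moderately higher and Rraga (−0.55) lower. Without untreated replicate 2, 0 autophagy genes were moderately higher, and without 6 h replicate 1 there was 1.

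Some lipid synthesis genes showed a small rise. Of 25 genes of cholesterol synthesis and uptake, 7 were moderately higher (28.0%, against 5.99% of all genes) and 0 lower, with a median of 0.23. Dhcr7, which makes the last step to cholesterol, went from 96.8 and 85.8 CPM to 166 and 132 CPM (log2 fold change 0.71, adjusted p = 2.78e-04), and Lss, the lanosterol synthase gene, from 94.4 and 88.5 CPM to 143 and 137 CPM (0.62, adjusted p = 6.80e-04). At 18 h both had fallen below their untreated level, to 47.3 and 53.9 CPM and to 36.7 and 42.7 CPM. The desaturase genes Fads1 and Fads2 rose by 0.86 each (adjusted p = 1.47e-04 and 3.31e-04). Without 1 library, 3 to 9 members of the cholesterol list were moderately higher. Nuclear genes of oxidative phosphorylation had 1 of 36 moderately higher (2.78%, against 5.99% of all genes). Their median of 0.20 lay between −0.01 and 0.39 without 1 library.

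Components of the early BCR signal changed moderately in both directions. Of 26 proximal kinases and adaptors, 8 were moderately lower (30.8%, against 7.83% of all genes) and 5 higher (19.2%, against 5.99%), and 0 were differentially expressed by edgeR or DESeq2, while 11 were lower and 5 higher at an unadjusted p under 0.05. Without 1 library, 5 to 7 were lower and 2 to 6 higher, with 5 lower and 2 higher without untreated replicate 2. Malt1 went from 111 and 132 CPM to 67.4 and 87.4 CPM (log2 fold change −0.65), and the adaptor gene Pik3ap1 (BCAP) from 337 and 362 CPM to 221 and 224 CPM (−0.65, adjusted p = 4.95e-05). Lat2 was moderately higher (1.02, adjusted p = 0.0308). Ighm, the IgM heavy chain gene, fell by 0.24 (adjusted p = 0.0429), and the inhibitory Fc receptor gene Fcgr2b went from 41.3 and 40.1 CPM to 65.4 and 68.2 CPM (0.71, adjusted p = 4.52e-05). Among immediate early genes, which peak well before 6 h, the corepressor gene Nab2 rose from 6.98 and 6.06 CPM to 23.2 and 24.6 CPM (1.86, adjusted p = 1.74e-06). Egr3, a factor of the family that Nab2 binds, went from 15.1 and 17.1 CPM to 5.49 and 5.13 CPM (−1.59, adjusted p = 0.00864), and the orphan receptor gene Nr4a1 from 37.7 and 40.9 CPM to 15.5 and 12.7 CPM (−1.47, adjusted p = 0.00472). The calls of Egr3 and Nr4a1 were lost without each of the 4 libraries, with adjusted p of up to 0.118 and 0.0600. Spred2, an inhibitor of the ERK pathway, fell by 1.09, with −0.97 and no call without 6 h replicate 2.

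Of 21 factors of B cell identity and plasma cell fate, 8 were moderately lower (38.1%, against 7.83% of all genes) and 1 higher. Without 1 library, 5 were lower (without untreated replicate 2 or 6 h replicate 1), 7 (untreated replicate 1) or 11 (6 h replicate 2). Irf4, which drives both germinal center and plasma cell programs, fell from 121 and 120 CPM to 53.9 and 58.5 CPM (log2 fold change −1.11, standard error 0.11, adjusted p = 3.05e-06), and Irf8 (−0.75), Id3 (−0.68) and Ebf1 (−0.50) fell moderately. Pax5 was at 2016 and 1946 CPM and then at 1780 and 1627 CPM, a log2 fold change of −0.22 that did not pass (adjusted p = 0.101). Lef1 fell by 1.06, but was called in 1 of the 4 fits without 1 library. The Wnt target Axin2 fell from 10.7 and 9.42 CPM to 4.47 and 3.20 CPM (−1.37, adjusted p = 4.44e-05). Trib2, a pseudokinase gene linked to FoxO factors, fell by 1.23, while Pik3ip1 (0.82) and Sgk1 (0.72, adjusted p = 0.0444) of the same list were moderately higher. Of the Kruppel-like factors 4 of 12 were moderately lower (33.3%, against 7.83% of all genes), led by Klf2 (141 and 115 CPM to 73.2 and 62.9 CPM, −0.91).

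Genes of cell death showed changes in both directions. In the Bcl-2 family, Pmaip1 (NOXA) went from 221 and 271 CPM to 102 and 154 CPM (log2 fold change −0.95, adjusted p = 8.58e-04), Bcl2 from 115 and 123 CPM to 63.4 and 72.8 CPM (−0.81, adjusted p = 1.66e-04) and Mcl1 from 1456 and 1520 CPM to 1015 and 1262 CPM (−0.39, adjusted p = 0.00997). Bcl2l14 (0.87) and Bcl2l15 (0.55, adjusted p = 0.0366) were moderately higher, at no more than 6.34 CPM in these libraries. Bcl2l1 (BCL-XL) had a log2 fold change of −0.38 (adjusted p = 0.179). Birc3, an inhibitor of apoptosis that NF-kB induces, fell from 181 and 192 CPM to 88.2 and 95.2 CPM (−1.03, adjusted p = 1.81e-06), with −0.97 at its smallest and no call without untreated replicate 2 and without 6 h replicate 1. Ripk3 was at 0.677 and 0.311 CPM and then at 1.40 and 0.845 CPM (adjusted p = 0.0755). Of 12 MHC class II genes, 0 were moderately changed by edgeR and 1, lower, by DESeq2, with 1 higher and 3 lower at an unadjusted p under 0.05. H2-Aa stood at 9.38 and 14.1 CPM and then at 9.51 and 11.2 CPM, and Ciita at 7.58 and 9.63 CPM and then at 9.24 and 9.42 CPM. Both were far higher at 18 h (57.8 and 56.9 CPM, and 43.9 and 45.0 CPM).

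Further lists are given by their moderately changed members, to be read against 5.99% of all genes higher and 7.83% lower. Of 28 interferon-stimulated genes, 2 were moderately higher (7.14%) and 1 lower (3.57%), with a median log2 fold change of 0.03, against −0.44 in parental cells. The A-59 median depended on single libraries, from −0.28 without 6 h replicate 1 to 0.11 without 6 h replicate 2 or untreated replicate 1. The difference from the parental response passed an FDR under 0.05 for 2 of the 28 genes and the fold threshold as well for 0. Of 16 MHC class I genes, 1 was higher and 1 lower, and of 17 targets of p53, 1 was higher and 2 lower. The amino acid and ER stress response had 2 of 27 genes higher and 2 lower, and glycolysis 2 of 28 higher and 1 lower. Of 13 TNF receptor family genes, 3 were higher (23.1%) and 2 lower (15.4%), with 0 higher without untreated replicate 2 or 6 h replicate 1. Calcium and NFAT signalling had 5 of 22 genes lower (22.7%) and 1 higher with a median of −0.13, and 2 lower without untreated replicate 2. The Wnt and TCF pathway had 4 of 17 lower (23.5%), 2 of them differentially expressed, and 0 higher.

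**Figure D4:**
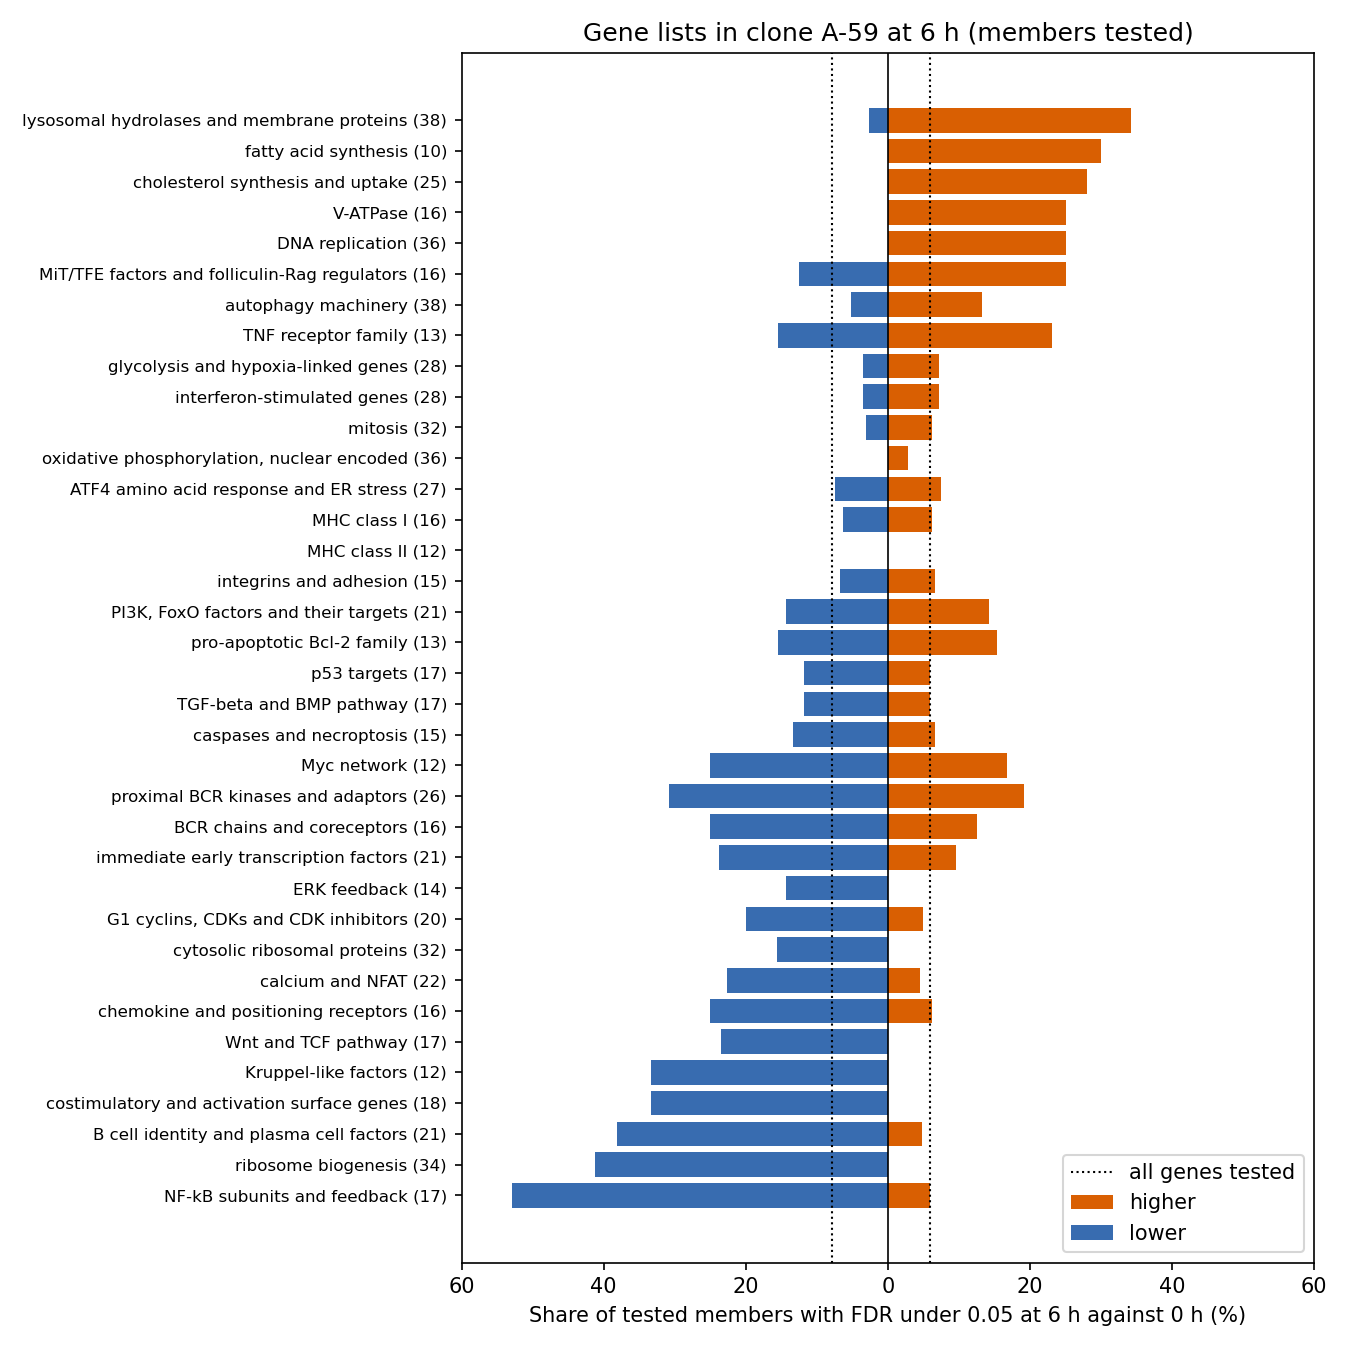
Share of the tested members of each gene list with an FDR under 0.05 in A-59 at 6 h against 0 h, higher to the right and lower to the left, for lists with at least 10 members tested (number in brackets). Dotted lines give the shares of all 15318 genes, 5.99% higher and 7.83% lower. The NF-kB list has the largest share lower (52.9%) and the lysosomal list the largest share higher (34.2%).

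A few genes near the limit of detection changed. The endothelin gene Edn1 had 21 and 15 counts at 0 h and 0 and 0 at 6 h, so that it was at least 10.3-fold lower (with a floor of 3 counts over the group), and counts of the overlapping Gm47118 cannot be told apart from it. Csf1r, a receptor of macrophages, had 2 and 2 counts at 0 h and 57 and 16 at 6 h, a ratio of 21.3 (95% exact interval 7.96 to 80.2, which covers counting error only). Adgre1, another macrophage marker, had 15 and 7 counts and then 33 and 22. Csf1r lost its call without untreated replicate 1 and without 6 h replicate 1, and Adgre1 without each library. Serpinb6b had 0 counts in both untreated libraries and reached 0.0757 and 0.181 CPM after stimulation, too few for a fold change.

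The response of A-59 overlapped that of both other lines. Parental cells had 402 differentially expressed genes (2.62%) and B-20 had 59 (0.385%). The latter became 27 without untreated B-20 replicate 2 and 43 without B-20 6 h replicate 2, a library that stood apart by the share of counts in its 10 most abundant genes (6.69%, against at most 4.61% in the others). The parental count was 244 without untreated replicate 2. Of the 213 genes of A-59, 83 changed in the same direction in parental cells (39.0% of the A-59 genes and 20.6% of the parental ones), and 1 in the opposite direction. B-20 shared 42 of them (19.7% of the A-59 genes and 71.2% of those of B-20), with 0 in the opposite direction. No library was shared between these comparisons. Of the 213 genes, 198 had the same sign in parental cells (93.0%, against 65.6% of all genes) and 205 in B-20 (96.2%, against 69.6%). Genes that rose in parental cells had a median log2 fold change of 1.59 there and of 0.89 in A-59, and genes that fell −1.34 and −0.63. Conversely, the A-59 genes had medians of 1.43 and −1.30 in A-59 and of 0.96 and −0.92 in parental cells, so that genes chosen in one line had the smaller change in the other in both directions.

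A different response of single genes was tested by the interaction of genotype and time, and 52 genes passed against parental cells (0.339%), 21 of them with a higher and 31 with a lower log2 fold change in A-59. Of these 52, 31 had no moderate change in A-59. The chemokine receptor gene Ccr7 stood at 0.711 and 0.725 CPM in untreated A-59 and at 0.568 and 0.725 CPM after 6 h, whereas it rose from 1.30 and 1.53 CPM to 6.34 and 7.82 CPM in parental cells (log2 difference −2.50, standard error 0.45, adjusted p = 0.00536). Scd4, a stearoyl-CoA desaturase gene with close paralogs, stayed at 0.914 and 1.24 CPM and then 1.10 and 0.906 CPM, against 0.759 and 1.08 CPM and then 26.8 and 28.2 CPM in parental cells (−4.96, adjusted p = 1.10e-06). Prxl2a had log2 fold changes of 0.53 in A-59 and 2.60 in parental cells (difference −2.07), and Alcam, although it rose in A-59, rose further in parental cells (2.11 and 4.30, difference −2.19). Slc6a20a (difference −3.40) shares exons with Ccr9, and Gm6145 (−3.58) with 9330188P03Rik and Mir6390. In the other direction, Cntn2, a neural adhesion molecule gene, went from 101 and 84.6 CPM to 139 and 136 CPM in A-59 and from 39.6 and 31.2 CPM to 14.5 and 9.62 CPM in parental cells (difference 2.12, adjusted p = 3.97e-05). Sorcs2 (2.59), Pira1 (1.81), Ank3 (1.49), Tas1r3 (1.49) and the calcium channel gene Cacna1i (1.36) fell in parental cells and did not pass in A-59. With each of the 8 libraries left out in turn, Scd4, Prxl2a, Cntn2 and Cacna1i passed in all 8 fits, Gm6145 in 7, Slc6a20a in 6, Ank3 in 5, Pira1 in 3, Sorcs2 in 2, and Ccr7, Alcam and Tas1r3 in 1. The total was 105 without A-59 6 h replicate 2 and 50 without A-59 untreated replicate 1, and it was lower without any of the others: 29 without A-59 6 h replicate 1 and 13 without A-59 untreated replicate 2, and 15 to 32 without a parental library. With only the groups compared in the fit, 1 gene passed.

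**Figure D5:**
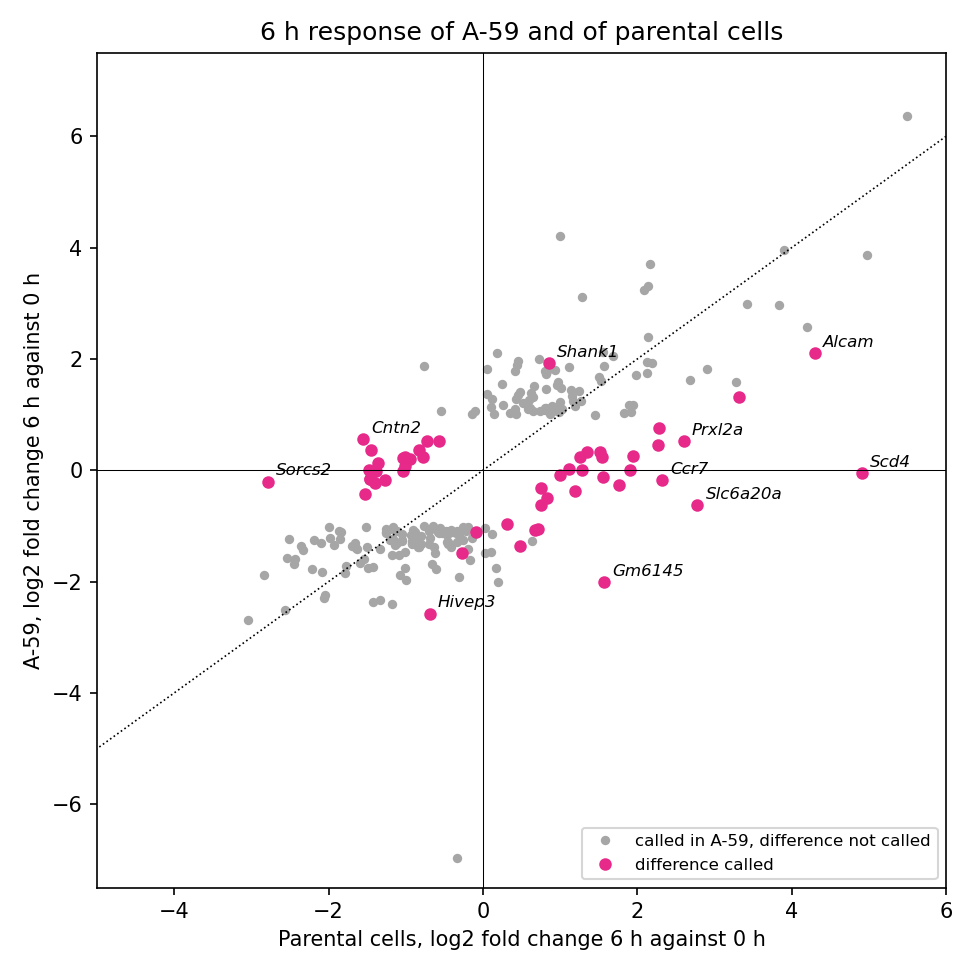
Log2 fold change at 6 h against 0 h in A-59 (vertical) and in parental cells (horizontal), for genes differentially expressed in A-59 (grey) and for the 52 genes whose responses differed by the interaction test (pink). The dotted line marks equal responses. Most pink points lie near 0 on the vertical axis, such as Ccr7 and Scd4 on the right and Sorcs2 on the left.

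Against B-20, 1 gene passed (0.00653%). Fcmr, the Fc receptor for IgM, rose from 9.37 and 9.11 CPM to 33.7 and 32.2 CPM in B-20 and went from 35.3 and 31.7 CPM to 42.2 and 42.2 CPM in A-59 (log2 difference −1.50, standard error 0.16, adjusted p = 4.59e-04). It also rose more in parental cells than in A-59 (1.51 and 0.33, adjusted p of the difference 3.75e-04). At an unadjusted p under 0.05, 987 genes differed between the clones' responses, and DESeq2 called 7. Without either untreated B-20 library 0 genes passed, and 9 passed without A-59 6 h replicate 2.

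Between 6 and 18 h, 1381 genes changed in A-59 (9.02%), 678 higher and 703 lower. Of the 91 genes higher at 6 h, 33 fell again past the threshold, 4 rose further and 54 did neither. Of the 122 lower genes, 55 rose again, 5 fell further and 62 did neither. Both comparisons use the same 6 h libraries, so the second is not independent of the first. Among those that turned back were Fcer2a, Hivep3, Slamf7, Kcnj1, Cd83 and Edn1 from below and Havcr1, Tubb6, Ndrg4, Ptgir, ENSMUSG00000072812 and Elavl3 from above. Elavl3, an RNA-binding protein gene of neurons, went from 0.339 and 0.155 CPM to 1.21 and 1.09 CPM and back to 0.576 and 0.302 CPM.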

How the data were processed

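The authors deposited raw counts, whole numbers of reads for each Ensembl gene in each library. Per the study's methods, non-stranded mRNA libraries were sequenced single-end and reads were aligned with STAR to GRCm38 and counted with featureCounts; the submitters' processing notes name STAR 2.5, featureCounts 1.5.0-p1 and bcl2fastq 2.20.0.422. Because strand was not kept, overlapping genes can share reads, and of the 53 differentially expressed genes that the rule below selects, 22 share exons with another annotated gene. Close paralogs are likewise uncertain.

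From these counts, genes were filtered with filterByExpr (15318 kept) and scaled by TMM in edgeR 4.0.16 (R 4.3.3). The quasi-likelihood test, with robust estimation, used all 18 libraries in a model of 9 group means, since 2 libraries per group give few degrees of freedom. P-values are two-sided and were adjusted over all genes of a comparison by the Benjamini-Hochberg method, and every adjusted p in the text comes from this test. Genes were differentially expressed at an FDR below 0.01 and a change of more than 1 (log2), and moderately changed at an FDR below 0.05. Groups came from the labels.

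Genes named are those of the study's text, the 12 in each direction with the largest change and at least 20 counts on average, up to 5 differentially expressed members of each list (or 3 moderately changed) and 2 unchanged ones, the 6 in each direction with the largest difference between responses, and the 6 in each direction that turned back most; 1 gene that the rule selects is not reported here. Nfkb2, Rel, Ikbke, Nfkb1, Traf1, Flcn, Ccr9 and the lysosomal genes shown with their promoters were named after their values were seen. The 47 lists, of 906 genes, were written by hand. The comparison, the lists and the rule were chosen with earlier results of these data known.

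Alternatives were DESeq2 1.42.0 with and without betaPrior, its size factors, other filters, smaller sets of libraries, the replicate number as a block, a GC correction (loess, span 0.5, GC known for 99.2% of genes) and leaving out each library. List counts without a library were added after seeing the data. On simulated counts for A-59 at 6 h, with 200 changed genes, the fit called 172 at a log2 change of 1.5 (14792 genes) and 183 at 2 (14806 genes). These counts were drawn independently with a spread per gene shared by all groups. They lacked the wider spread of the A-59 6 h replicates and its relation to GC content. Coordinates and promoters are those of RefSeq on GRCm38.p6, matched by symbol (64.9% of identifiers, 96.9% of counts), and GC content is from GENCODE vM39, matched by identifier (93.2%).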

Additional observations from a re-analysis of the deposited data

Results flagged for a closer look

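A difference between the 6 h responses of A-59 and parental cells passed the threshold for 52 genes, and between A-59 and B-20 for 1 gene, each by the interaction term of edgeR's quasi-likelihood test. Among the 12 genes named, the log2 difference from the parental response was −4.96 for Scd4, −3.58 for Gm6145, −3.40 for Slc6a20a, −2.50 for Ccr7, −2.19 for Alcam and −2.07 for Prxl2a. It was 2.59 for Sorcs2, 2.12 for Cntn2, 1.81 for Pira1, 1.49 for Tas1r3, 1.49 for Ank3 and 1.36 for Cacna1i. Against B-20 it was −1.50 for Fcmr. With 2 libraries in each group, no test for an outlying value within a group was made.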

How the results depend on the processing

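In A-59 at 6 h the 213 genes became 76 with only the groups compared, 124 with only their genotype, and 108 to 310 with a library left out. All of the 213 kept their sign in each alternative in which they were tested. Their groups did not overlap and the alternatives used the same counts, so this was no independent check. Of the 213, 145 passed in all 7 alternatives of tool, scaling, filter removal, block and GC correction. The difference from the parental response (52) gave 81 genes by DESeq2, 107 without a filter, 87 with replicate block and GC correction, 1 with only the groups compared (edgeR) and 13 to 105 without a library. That from B-20 (1) gave 7 by DESeq2, 8 with betaPrior, 16 without a filter, 3 with GC correction, 6 with replicate block, 6 with block and GC correction, 0 with only the groups compared (edgeR; 650 at an unadjusted p under 0.05) and 0 to 9 without a library. The parental 402 became 254 when 10 counts in every library were required and 244 to 337 without a library, and the 59 of B-20 became 97 without a filter and 27 to 57 without a library. The causes of these shifts were not tested, beyond the fewer genes tested or samples fitted that some imply.

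The replicate block gave 244 genes in A-59 at 6 h. The labels do not say that equal numbers mark one experiment, and of 36 pairs of groups 19 correlated above 0.1 in their deviations (−0.0791 to 0.521, the highest for A-59 at 0 and 6 h), so the numbers were not taken to pair the samples. Log2 fold changes of A-59 at 6 h followed GC content (Spearman's rho 0.23 across genes, 0.00795 after correction), and 191 of the 213 genes passed after correction, among 220. Of the 53 differentially expressed genes that the naming rule selects, 30 passed without any single library and 6 failed without each. Depth limits genes with few counts: 5 of the 213 were under 1 CPM in all 4 libraries.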
